A study of Homo sapiens with 12 samples.

Results

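The aryl hydrocarbon receptor and its targets are described here by 7 genes, taken by symbol from a table of 23368 genes: AHR, its partner ARNT, the repressor AHRR, and the targets CYP1A1, CYP1B1, TIPARP and ALDH3A1. The set was selected on earlier results of these data, namely the lower CYP1A1 with GFOGER in T47D cells and the lower ALDH3A1 with GFOGER in MDA-MB-231 cells. RNA was sequenced from MDA-MB-231 cells, an ER- line of basal type, and T47D cells, an ER+ line of luminal type, both human breast cancer lines from a pleural effusion. Cells of each line were encapsulated for 3 days in synthetic poly(ethylene glycol) hydrogels that cells can degrade, carrying either the collagen mimic GFOGER or the laminin mimic IKVAV. Each replicate was RNA pooled from 3 gels, released with collagenase. There were 3 replicates of MDA-MB-231 with GFOGER, 2 of MDA-MB-231 with IKVAV, 3 of T47D with GFOGER and 3 of T47D with IKVAV. The third replicate of MDA-MB-231 with IKVAV, which the submitters omitted as an outlier, was not analysed here. Each condition is 1 cell line, so the lines are single models of their subtypes, and no untreated or 2-dimensional culture stands beside the 2 mimics.

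The aryl hydrocarbon receptor is a transcription factor of the bHLH-PAS family that waits in the cytoplasm with HSP90. On binding a ligand, such as a dioxin, a polycyclic hydrocarbon or a tryptophan product, it enters the nucleus, pairs with ARNT and binds response elements with the core GCGTG. Its best known targets are the oxidising enzymes CYP1A1 and CYP1B1, the repressor AHRR and the ADP-ribosyltransferase TIPARP, both of which act back on the receptor, and in some cell types the aldehyde dehydrogenase ALDH3A1.

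Libraries held 14338238 to 18452145 counts. All 5 luminal markers (ESR1, GATA3, KRT8, KRT18 and CDH1) were higher in T47D and 4 of 5 mesenchymal markers (VIM, CD44, ZEB1 and AXL) higher in MDA-MB-231 without overlap between libraries, whereas SPARC stayed at or below 2.26 cpm (counts relative to the library total, scaled by TMM) in every library. Of markers of cells that should be absent, COL1A1 reached 62.2 cpm in T47D and PDGFRB 13.9 cpm, PECAM1 14.6 cpm and CD14 11.3 cpm in MDA-MB-231, while COL3A1, DCN, PTPRC, CD3E, CDH5 and VWF were at or below 0.57 cpm. Summed over each list, the 4 fibroblast markers ranged from 14.8 to 62.6 cpm, the 3 leukocyte markers from 0.119 to 11.3 cpm and the 3 endothelial markers from 0 to 14.8 cpm, and their part in the results was not tested. In bulk RNA, fewer cells of a type and less RNA per cell cannot be told apart. T47D IKVAV replicate 3 stood apart, in that 94 genes were called between the mimics in T47D without it and 3 with it. By the totals that the deposited RPKM values imply, it is also the 1 T47D IKVAV library of the same kind as the T47D GFOGER libraries, so that without it this split and the mimic cannot be told apart in T47D. Replicates differed by more than sampling noise in each group. Replicate 3 of MDA-MB-231 with GFOGER also stood apart. Its mean squared difference per gene from replicates 1 and 2 was 16.4 and 18.6 times the sampling variance, against 2.51 between those 2. For T47D IKVAV replicate 3 the values were 17.9 and 16.9, against 5.5 between replicates 1 and 2. The labels do not say whether replicates came from separate cultures, so that p-values measure the spread between these samples, which may be technical.

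The sequence before 3 of the target genes is shown because the core GCGTG can be read in it. Promoters of 5 of the 7 genes were matched by symbol in RefSeq (GRCh38.p14). The 250 bases before the annotated start were searched for GCGTG on both strands, which marks CACGC when it lies on the opposite strand, and matches are in capitals. Of 35116 promoters, 32.2% held the core. CYP1B1 and ALDH3A1 were not matched.
CYP1A1, chr15:74725529-74725778, minus strand: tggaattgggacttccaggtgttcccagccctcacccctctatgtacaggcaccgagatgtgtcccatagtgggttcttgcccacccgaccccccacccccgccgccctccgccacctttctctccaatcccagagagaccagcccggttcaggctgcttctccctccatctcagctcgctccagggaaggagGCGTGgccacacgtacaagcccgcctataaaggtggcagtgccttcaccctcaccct
AHRR, chr5:321464-321713, plus strand: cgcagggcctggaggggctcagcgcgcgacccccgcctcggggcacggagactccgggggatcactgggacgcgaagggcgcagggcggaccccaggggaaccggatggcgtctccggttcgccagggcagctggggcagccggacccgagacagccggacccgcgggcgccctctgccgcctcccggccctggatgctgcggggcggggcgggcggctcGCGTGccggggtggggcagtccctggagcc
TIPARP, chr3:156674340-156674589, plus strand: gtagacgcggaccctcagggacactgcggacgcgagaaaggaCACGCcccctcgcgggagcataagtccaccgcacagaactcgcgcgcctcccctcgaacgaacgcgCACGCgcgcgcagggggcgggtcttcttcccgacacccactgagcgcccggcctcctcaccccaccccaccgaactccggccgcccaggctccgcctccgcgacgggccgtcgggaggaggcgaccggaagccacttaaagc
The core lay 57 bases before the start in CYP1A1, 30 bases in AHRR and 208 and 142 bases in TIPARP. The windows of AHR and ARNT held 0 matches. AHRR has a further annotated start with 2 matches before it, and TIPARP has 2 further starts with 0, which are not shown. A match is only a match of 5 letters, and no match says nothing about binding of the receptor.

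The CYP1A1 enhancer is known to lie farther upstream, so the bases 801 to 1100 before the CYP1A1 start were also read, from hg19, the build of the deposited coordinates.
CYP1A1 upstream, chr15:75018678-75018977, minus strand: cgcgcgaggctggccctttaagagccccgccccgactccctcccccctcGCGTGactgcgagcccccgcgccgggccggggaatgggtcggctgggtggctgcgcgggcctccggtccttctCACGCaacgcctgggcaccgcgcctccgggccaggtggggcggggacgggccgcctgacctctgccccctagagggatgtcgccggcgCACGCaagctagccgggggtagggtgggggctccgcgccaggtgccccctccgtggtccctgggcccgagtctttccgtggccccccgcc
This window held 3 cores, between 890 and 1051 bases before the start. Of the same window before 19389 genes, 26.8% held at least 1 core and 1.52% held 3 or more. Among the other members the window held 5 cores before CYP1B1, 2 before ARNT, and 0 before AHR, AHRR, TIPARP and ALDH3A1. These windows are counted from the deposited hg19 spans and not from the RefSeq starts above. For AHRR the deposited span begins at 304291, whereas the promoter shown lies at 321464-321713 on the other build. The 2 AHRR windows therefore need not belong to the same start.

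AHR, the receptor itself (chr7:17338276-17385775, hg19), was most abundant in MDA-MB-231. Its level in MDA-MB-231 was 563.2, 570.6 and 454.3 cpm with GFOGER and 732.7 and 727.3 cpm with IKVAV. In T47D it was 89.06, 79.67 and 96.44 cpm with GFOGER and 97.8, 95.31 and 122.4 cpm with IKVAV. Every MDA-MB-231 library thus lay above every T47D library, the GFOGER libraries lay below the IKVAV libraries in MDA-MB-231, and the 2 mimics overlapped in T47D. Averaged over both mimics, AHR was 6.45-fold higher in MDA-MB-231 (log2 fold change 2.69 ± 0.0796 SE, adjusted p = 2.31e-17, edgeR's quasi-likelihood test).

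ARNT, the partner with which AHR binds DNA (chr1:150782181-150849244), was at a like level in 3 of the 4 conditions. Its level in MDA-MB-231 was 74.59, 76.28 and 74.79 cpm with GFOGER and 93.53 and 102.4 cpm with IKVAV. In T47D it was 97.08, 94.08 and 98.6 cpm with GFOGER and 106.7, 91.65 and 96.3 cpm with IKVAV. MDA-MB-231 cells with GFOGER were the lowest condition, below all other libraries, and the other 3 conditions overlapped. The difference between the lines was -0.18 ± 0.0624 on the log2 scale (edgeR adjusted p = 0.0111), which is below the 2-fold limit set for a call.

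AHRR, which competes with AHR for ARNT (chr5:304291-438405), was the least abundant member in T47D after ALDH3A1 when levels were compared per kb of gene length. Its level in MDA-MB-231 was 10.23, 11.43 and 13.04 cpm with GFOGER and 30.85 and 34.73 cpm with IKVAV. In T47D it was 5.626, 5.002 and 5.184 cpm with GFOGER and 9.088, 8.543 and 6.238 cpm with IKVAV. The 4 conditions did not overlap, in the order MDA-MB-231 with IKVAV, MDA-MB-231 with GFOGER, T47D with IKVAV and T47D with GFOGER. AHRR was 3.01-fold higher in MDA-MB-231 (log2 fold change 1.59 ± 0.115 SE, edgeR adjusted p = 6.87e-11). AHRR overlaps PDCD6 on the deposited coordinates, with 1099 to 2526 counts per library for PDCD6, and how reads in the shared stretch were assigned is not stated.

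CYP1A1, the classic target and a monooxygenase of polycyclic hydrocarbons (chr15:75011883-75017877), had its lowest level in T47D with GFOGER. There it was 24.72, 23.16 and 21.82 cpm, against 36.01, 63.4 and 53.94 cpm in T47D with IKVAV. In MDA-MB-231 it was 62.42, 54.79 and 62.83 cpm with GFOGER and 63.59 and 75.38 cpm with IKVAV. The 3 T47D GFOGER libraries were close together and below all others, and the 3 T47D IKVAV libraries were spread over 1.76-fold, with replicate 2 within the range of MDA-MB-231 and replicate 3 just below it. CYP1A1 was 1.87-fold higher in MDA-MB-231 over both mimics (log2 fold change 0.91 ± 0.109 SE, edgeR adjusted p = 1.77e-07). This is below the 2-fold limit, and the libraries of the 2 lines overlapped.

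CYP1B1, a relative of CYP1A1 that also hydroxylates estradiol (chr2:38294746-38303323), was the most abundant member in each condition per kb of gene length. Its level in MDA-MB-231 was 1603, 1619 and 1448 cpm with GFOGER and 2086 and 2101 cpm with IKVAV. In T47D it was 912.6, 842.2 and 978.7 cpm with GFOGER and 897.8, 1141 and 853.6 cpm with IKVAV. All MDA-MB-231 libraries lay above all T47D libraries, and the mimics overlapped only in T47D. The difference between the lines was 1.93-fold (log2 fold change 0.95 ± 0.0702 SE, edgeR adjusted p = 1.06e-10), just below the 2-fold limit, and the log2 fold change was 1.02, past the limit, without T47D IKVAV replicate 2. On the scale of cpm per kb, CYP1B1 stood at 302.1 ± 18.37 and CYP1A1 at 23.01 ± 1.736 (SD, n = 3) in MDA-MB-231 with GFOGER. In T47D with GFOGER the same levels were 176.8 ± 13.25 and 8.91 ± 0.5571 (SD, n = 3). With IKVAV they were 406.3 ± 2.091 and 26.64 ± 3.196 in MDA-MB-231 (SD, n = 2) and 187.1 ± 30.07 and 19.6 ± 5.333 in T47D (SD, n = 3).

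TIPARP, which modifies and restrains AHR (chr3:156392205-156424557), was again higher in MDA-MB-231. Its level there was 329.7, 328.4 and 262.4 cpm with GFOGER and 339 and 347.9 cpm with IKVAV. In T47D it was 113, 102.4 and 114.2 cpm with GFOGER and 125.9, 157.9 and 218.8 cpm with IKVAV. The 4 conditions did not overlap, although T47D IKVAV replicate 3 stood well above the other two. TIPARP was 2.39-fold higher in MDA-MB-231 (log2 fold change 1.26 ± 0.102 SE, edgeR adjusted p = 4.38e-10). Its span overlaps the antisense gene TIPARP-AS1, which had 11 to 58 counts per library.

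ALDH3A1, an aldehyde dehydrogenase (chr17:19641298-19651746), rose above 3 counts only in MDA-MB-231 libraries. It had 416 and 365 counts (26.96 and 22.01 cpm) in MDA-MB-231 with IKVAV and 17, 36 and 29 counts (0.9717, 2.224 and 1.652 cpm) with GFOGER. In T47D it had 2, 3 and 1 counts with GFOGER and 1, 1 and 2 counts with IKVAV, at or below 3 counts per library. Both MDA-MB-231 conditions lay above T47D, and the MDA-MB-231 mimics were far apart. Summed reads over summed library totals, scaled by TMM, had a ratio between the lines of 13.6 with GFOGER (82 against 6 reads, 95% exact Poisson interval 6 to 38.2). With IKVAV the ratio was 293 (781 against 4 reads, 114 to 1080). These intervals cover counting error only. ALDH3A1 passed the filter on low counts through the MDA-MB-231 libraries alone and so had to differ between the lines, and no p is given for it.

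**Figure D1:**
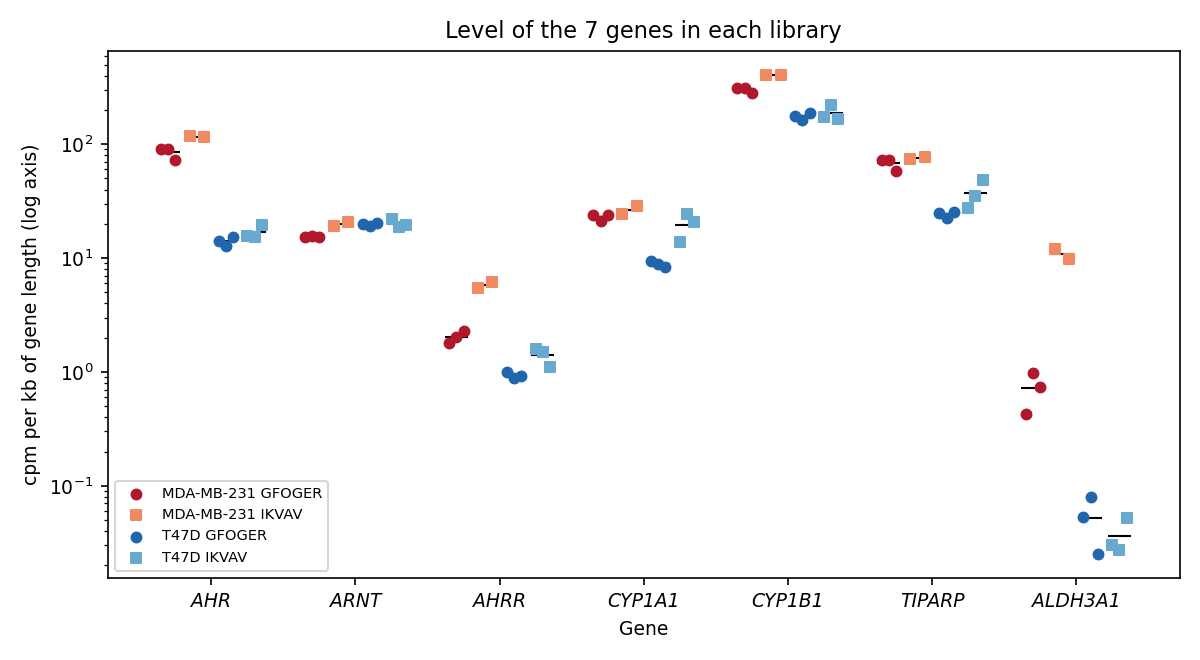
Level of the 7 genes in each of the 11 libraries, in cpm per kb of gene length on a log axis, with circles for GFOGER, squares for IKVAV, reds for MDA-MB-231, blues for T47D and black bars for the condition mean. CYP1B1 is highest in each condition, AHR and TIPARP separate the lines, and ALDH3A1 falls from 10.85 in MDA-MB-231 with IKVAV to 0.0525 with GFOGER and 0.0366 with IKVAV in T47D.

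Between the lines, 4 of the 7 genes were called higher in MDA-MB-231 (AHR, AHRR, TIPARP and ALDH3A1) and 0 lower, where a call is an adjusted p below 0.05 with more than a 2-fold change. Of all 15320 genes tested, 23.7% were called higher in MDA-MB-231. In 5 of the 7, the 4 and CYP1B1, each MDA-MB-231 library exceeded each T47D library, which held for 32.6% of all genes. The median log2 fold change was 1.26 over the 7 genes and -0.015 over all genes, and ALDH3A1 counts in these figures although it had to differ. By an adjusted p alone, all 7 would be called, as would 12947 of all genes.

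Within each mimic the order of the lines held for 6 genes, with sizes given as descriptions because the mimic comparisons that chose the set enter them. With GFOGER the log2 fold change between the lines was 2.58 for AHR, 1.13 for AHRR, 1.37 for CYP1A1, 0.77 for CYP1B1 and 1.48 for TIPARP. With IKVAV it was 2.79 for AHR, 2.05 for AHRR, 0.44 for CYP1A1, 1.12 for CYP1B1 and 1.03 for TIPARP. CYP1A1 was therefore farther apart between the lines with GFOGER, and AHRR with IKVAV. ARNT stood at -0.36 with GFOGER and at -0.003 with IKVAV, where the libraries of the lines overlapped.

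**Figure D2:**
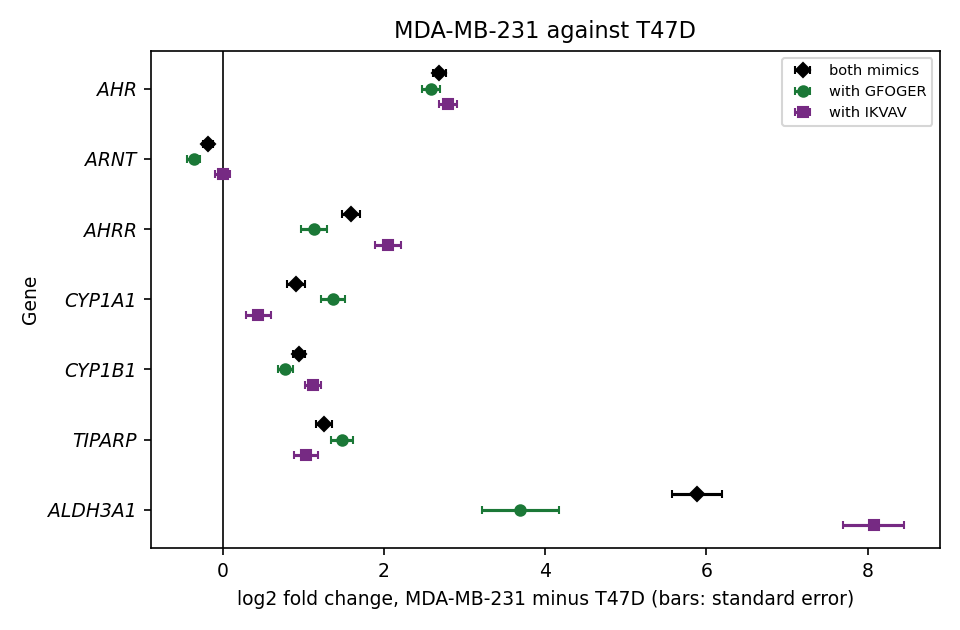
Log2 fold change of MDA-MB-231 over T47D for each gene, over both mimics (diamonds), with GFOGER (circles) and with IKVAV (squares), with standard errors as bars. AHR lies between 2.58 and 2.79 in all 3, ARNT lies at or below 0, and the points of CYP1A1 and AHRR are spread in opposite order.

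The comparison of the mimics asks how the receptor pathway differs between a collagen-like and a laminin-like matrix. In MDA-MB-231, ALDH3A1 fell with GFOGER by 3.93 on the log2 scale (± 0.228 SE, 15.3-fold) and AHRR by 1.51 (± 0.141 SE, 2.85-fold), and these 2 of 7 were called lower. The receptor AHR stood at -0.47 ± 0.0979, CYP1B1 at -0.43 ± 0.0771 and ARNT at -0.39 ± 0.0993. CYP1A1 stood at -0.22 ± 0.113 and TIPARP at -0.17 ± 0.103, the smallest differences of the set. CYP1A1 was at -0.087 without IKVAV replicate 2 and -0.34 without IKVAV replicate 1. Without GFOGER replicate 3, AHR was at -0.37, ARNT at -0.38, AHRR at -1.60, CYP1A1 at -0.25, CYP1B1 at -0.38 and TIPARP at -0.063. With libraries left out in turn, ALDH3A1 ranged from -4.23 to -3.67. In all 7 genes each GFOGER library lay below both IKVAV libraries. Of 14092 genes tested, 6.46% were called lower with GFOGER and in 30.7% the GFOGER libraries lay below the IKVAV libraries. The median was -0.43 over the 7 genes and 0.004 over all genes. Since these values chose the set, they are a description and carry no test.

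In T47D, CYP1A1 fell with GFOGER by 1.14 on the log2 scale (± 0.163 SE, 2.2-fold) and was the 1 member called, among 3 genes called in all, each of them lower with GFOGER. CYP1A1 was chosen for this difference, so that its call restates the choice, and the values of the 6 members carry no test. TIPARP stood at -0.61 ± 0.148 and AHRR at -0.59 ± 0.181, and in these 2 and CYP1A1 the GFOGER libraries lay below the IKVAV libraries. AHR stood at -0.25 ± 0.106, CYP1B1 at -0.08 ± 0.104 and ARNT at -0.02 ± 0.0837, with overlapping libraries. ALDH3A1 did not pass the filter on low counts, so 6 of 7 members were measured. Of 13642 genes tested, 0.022% were called lower with GFOGER and in 7.73% the GFOGER libraries lay below the IKVAV libraries. The median over the 6 genes was -0.42, against -0.001 over all genes. Without T47D IKVAV replicate 3 the log2 fold change was -1.10 for CYP1A1, -0.74 for AHRR, -0.37 for TIPARP, -0.16 for CYP1B1, -0.13 for AHR and -0.04 for ARNT. CYP1A1 was no longer called without any one of the 3 GFOGER replicates or without IKVAV replicate 2. With libraries left out in turn, its log2 fold change ranged from -1.34 to -0.96.

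**Figure D3:**
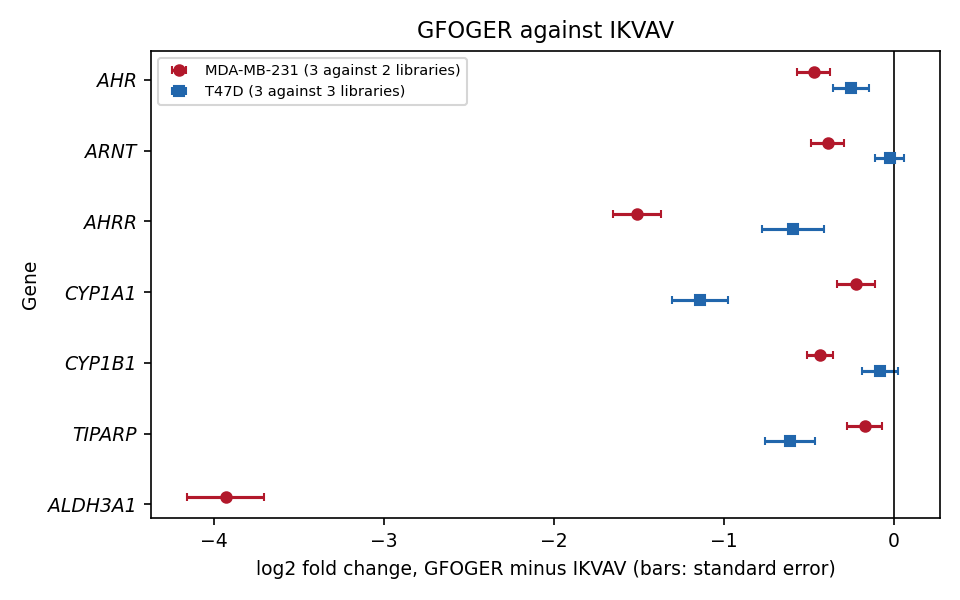
Log2 fold change of GFOGER over IKVAV for each gene in MDA-MB-231 (circles) and T47D (squares), with standard errors as bars. All points lie below 0, with ALDH3A1 and AHRR farthest to the left in MDA-MB-231 and CYP1A1 in T47D, where ALDH3A1 has no value.

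The members that stood apart were not the same in the 2 lines, as a description of values that chose the set. ALDH3A1 differed by 15.3-fold in MDA-MB-231 and had too few counts in T47D, while CYP1A1 differed by 2.2-fold in T47D and by 1.16-fold in MDA-MB-231. AHRR was lower with GFOGER in both lines, by 2.85-fold and 1.51-fold. TIPARP differed by 1.12-fold in MDA-MB-231 and 1.53-fold in T47D.

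Single IKVAV libraries differed in which members were high. Relative to the mean of the T47D GFOGER libraries, CYP1A1 was at 1.55, 2.73 and 2.32 in T47D IKVAV replicates 1, 2 and 3. AHRR was at 1.72, 1.62 and 1.18, and TIPARP at 1.15, 1.44 and 1.99. Replicate 1 was thus highest for AHRR, replicate 2 for CYP1A1 and replicate 3 for TIPARP. Within T47D with IKVAV, the highest library was 1.76-fold the lowest for CYP1A1 and 1.74-fold for TIPARP, against a median of 1.25 over all genes, and 16.6% and 17.3% of genes were spread at least as far. In MDA-MB-231 the 2 IKVAV libraries were at 16.7 and 13.6 for ALDH3A1 and 2.67 and 3 for AHRR. Their spread was 1.23-fold and 1.13-fold, against a median of 1.09, and 24.8% and 40.4% of genes were spread at least as far. The 3 MDA-MB-231 GFOGER libraries were spread 2.29-fold for ALDH3A1, at 17 to 36 counts, and 8.74% of genes were spread at least as far.

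**Figure D4:**
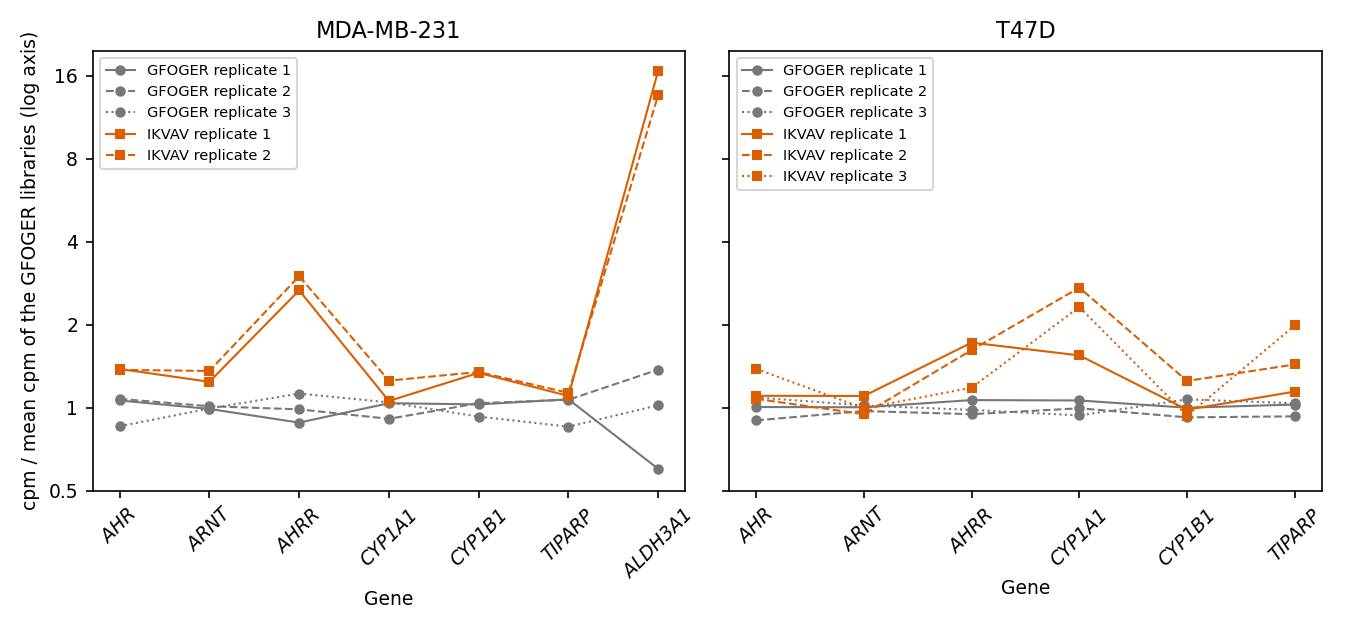
Level of each gene in each library divided by the mean of the GFOGER libraries of the same line, on a log axis, with grey circles for GFOGER and orange squares for IKVAV, and lines joining the values of 1 library. ALDH3A1 is not drawn for T47D. The MDA-MB-231 IKVAV libraries run together and reach 16.7 and 13.6 for ALDH3A1, whereas the T47D IKVAV libraries cross, with replicate 2 at 2.73 for CYP1A1 and replicate 3 at 1.99 for TIPARP.

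The deposited RPKM values imply library totals of 5191201 to 5774966 reads in 5 libraries (the 3 of T47D with GFOGER, T47D IKVAV replicate 3 and MDA-MB-231 IKVAV replicate 1) and 19898878 to 22840524 reads in the other 6, which the summed counts do not show. What this split reflects is not given in the sources used here. Compared only with libraries of its own kind, CYP1A1 was at 53.94 cpm in T47D IKVAV replicate 3 against 21.82 to 24.72 cpm with GFOGER. Relative to the GFOGER mean, that replicate was at 2.32 for CYP1A1, 1.99 for TIPARP, 1.38 for AHR, 1.18 for AHRR, 0.997 for ARNT and 0.937 for CYP1B1. ALDH3A1 was at 22.01 cpm in MDA-MB-231 IKVAV replicate 2 against 0.9717 to 2.224 cpm with GFOGER. Relative to the GFOGER mean, this library was at 13.6 for ALDH3A1, 3 for AHRR, 1.37 for AHR, 1.36 for ARNT, 1.35 for CYP1B1, 1.26 for CYP1A1 and 1.13 for TIPARP.

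Further genes of the pathway were counted in 5 lists of 51 genes, 42 of which were tested between the lines, where 16 were called higher and 9 lower in MDA-MB-231, against 46.3% of all genes called in either direction. Of the 25 called, 9 did not pass the filter on low counts in each line on its own (CYP1A2, EREG, IL1B, SERPINB2, IDO1, IL4I1, KMO, TDO2 and ALDH3B2), and a gene that passes through 1 line alone has to differ, so that these calls carry no support. CYP1A2 and TDO2 passed in neither line on its own, with condition means of 0.7801 cpm or less. Among the 33 genes that passed in both lines, 11 were called higher and 5 lower, against 36.5% of all such genes called in either direction. Of the receptor complex and co-regulators, 3 of 10 were called. ARNT2, a close relative of ARNT, was at 74.52 ± 1.24 and 72.33 ± 1.66 cpm in MDA-MB-231 with GFOGER and IKVAV and at 0.4325 ± 0.144 and 0.863 ± 0.528 cpm in T47D (SD, n = 3, 2, 3 and 3), a log2 fold change of 6.90 ± 0.156 (edgeR adjusted p = 2.56e-19). The co-repressor NRIP1 and the coactivator NCOA2 were lower in MDA-MB-231, by a log2 fold change of -2.28 and -1.66.

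Of 6 tested enzymes of tryptophan breakdown, whose products can act as AHR ligands, 4 were called between the lines, against 46.3% of all genes. IDO1, which opens the tryptophan ring, and IL4I1, an amino acid oxidase, were higher in MDA-MB-231 (log2 fold change 5.19 and 3.12). KMO, which acts on kynurenine, and TDO2 were lower (-6.34 and -1.36). None of the 4 passed the filter in both lines, and 0 of the 2 enzymes that did were called. TDO2 was at a mean of 0.643 cpm or less in each condition, IDO1 at 4.069 cpm or less and IL4I1 at 2.012 cpm or less, while KMO was at 13.85 and 14.15 cpm in T47D.

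Of 14 tested further AHR-responsive genes, 7 were called higher and 4 lower in MDA-MB-231, against 46.3% of all genes called in either direction. Of the 10 that passed the filter in both lines 4 were called higher and 3 lower, against 36.5% of all such genes. PTGS2, the inducible cyclooxygenase (log2 fold change 9.18), IL1B, a cytokine (6.99), and EREG, a growth factor (6.52), were higher, and STC2, a secreted glycoprotein, was lower (-8.15). NQO1, a quinone reductase and a target of both AHR and NRF2, was lower in MDA-MB-231, at 217.7 ± 6.18 and 278.4 ± 13.3 cpm against 597.9 ± 48.7 and 778.7 ± 243 cpm in T47D (log2 fold change -1.47 ± 0.11, edgeR adjusted p = 1.2e-10). NQO1 thus ran opposite to AHR between the lines. CYP1A2, the neighbour of CYP1A1 at a distance of 23.3 kb with 0 listed genes between, was named after its values were seen. It had 0 or 1 counts in each MDA-MB-231 library, 7, 4 and 3 in T47D with GFOGER and 6, 20 and 12 in T47D with IKVAV, where replicate 2 was highest, as it was for CYP1A1.

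Of 8 tested bHLH-PAS relatives, 5 were called, all higher in MDA-MB-231, against 23.7% of all genes called higher there. All 8 passed the filter in both lines, and of all such genes 36.5% were called in either direction. Whether the 8 exceed these shares was not tested. The 5 included the clock factors NPAS2 (log2 fold change 6.98), ARNTL2 (5.70) and CLOCK (1.14) and the hypoxia factor HIF1A (1.77). Of 4 tested aldehyde dehydrogenase relatives, 2 were called, against 46.3% of all genes. ALDH1A3, which makes retinoic acid, was higher (2.52) and ALDH3B2 lower (-8.86) in MDA-MB-231. Of the 3 that passed in both lines, 1 was called. The fitted fold changes of IDO1, IL4I1, KMO, TDO2, ALDH3B2, IL1B and EREG rest on a line with condition means of 0.4172 cpm or less. They depend on the prior count there and are no bounds. PTGS2 and ARNT2 also rest on few counts in T47D. Condition means there were 0.429 and 0.7948 cpm for PTGS2 and 0.4325 and 0.863 cpm for ARNT2.

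With GFOGER against IKVAV in MDA-MB-231, 5 of 38 related genes tested were called, 3 higher and 2 lower, against 9.57% of all genes called in either direction. SERPINB2, a protease inhibitor, was higher with GFOGER (log2 fold change 3.10 ± 0.31, edgeR adjusted p = 8.63e-07), at 5.998 ± 0.617 against 0.6882 ± 0.0351 cpm (SD, n = 3 and 2). ARNTL2 and IL4I1 were higher with GFOGER as well (1.12 ± 0.121 and 1.10 ± 0.41, edgeR adjusted p = 2.01e-06 and 0.0401). IL4I1 lay close to both limits of a call, at 39, 22 and 43 counts with GFOGER and 11 and 19 with IKVAV. CYP2S1, a cytochrome P450 of the AHR-responsive list, was lower with GFOGER (-1.83 ± 0.171, edgeR adjusted p = 3.87e-07), at 8.46, 9.64 and 13.7 cpm against 33.9 and 41.2 cpm. ALDH3A2, a fatty aldehyde dehydrogenase 60.4 kb from ALDH3A1 with 1 gene between, was lower too (-1.54 ± 0.0994, edgeR adjusted p = 5.33e-09), at 80.2, 82.4 and 69.5 cpm against 221 and 228 cpm. ALDH3A2 thus ran in the same direction as ALDH3A1, with a smaller log2 fold change. NQO1 stood at -0.36 ± 0.0864 (edgeR adjusted p = 0.00295) and ARNT2 at 0.04 ± 0.0999 (0.803), and these 2 were not called. Over all related genes tested the median log2 fold change was 0.13, against 0.004 over all genes.

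**Figure D5:**
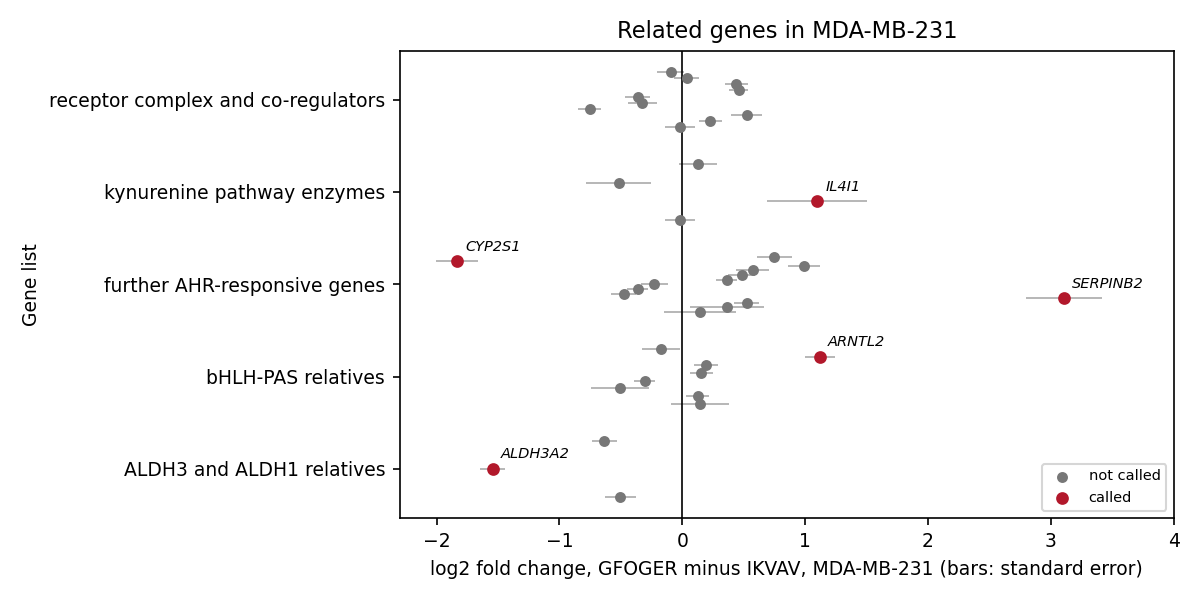
Log2 fold change of GFOGER over IKVAV in MDA-MB-231 for the 38 related genes tested, by list, with standard errors as bars and called genes in red with their names. SERPINB2 (3.10), ARNTL2 (1.12) and IL4I1 (1.10) lie to the right, CYP2S1 (-1.83) and ALDH3A2 (-1.54) to the left, and the receptor complex and co-regulators hold 0 calls.

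In T47D, 0 of 35 related genes tested were called by edgeR and 0 by DESeq2, and 5 had an unadjusted p below 0.05, as did 11.2% of all genes tested. NQO1 stood at -0.38 ± 0.163 (edgeR adjusted p = 0.405), with T47D IKVAV replicate 2 at 1030 cpm and the other IKVAV libraries at 753 and 550 cpm. ARNT2, with 5 to 22 counts per T47D library, stood at -0.98 ± 0.53 (edgeR adjusted p = 0.513). Without T47D IKVAV replicate 3, which leaves the mimics split as the implied totals are, 0 related genes were called, NQO1 stood at -0.58 ± 0.0957 (edgeR adjusted p = 0.000583) and ARNT2 at -1.41 ± 0.458 (0.0609). The difference between the lines in the response to the mimics was tested for the related genes, and 4 of 42 were called, against 6.42% of all genes. The call of EREG is not read, since EREG had 2 to 8 counts in each T47D library and did not pass the filter there. Among the 33 genes that passed in both lines 3 were called, against 6.82% of all such genes. The difference was -1.71 ± 0.253 for CYP2S1 (edgeR adjusted p = 9.98e-05), -1.37 ± 0.129 for ALDH3A2 (5.24e-07) and 1.15 ± 0.289 for ARNTL2 (0.00797). Without T47D IKVAV replicate 3 it was -1.56, -1.41 and 1.35, and the 3 genes were still called.

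The genes whose log2 cpm ran most like that of 3 members were found over the 11 libraries, among 11147 genes for AHR and CYP1A1 and 11148 for ALDH3A1. For AHR they were SLC39A10 (Pearson r = 0.9986), HIF1A (0.9974) and TGFBR3 (0.9966). For ALDH3A1 they were FN1 (0.9916), SH3PXD2B (0.99) and RARRES3 (0.9894). For CYP1A1 they were RBM3 (0.9255), AGAP6 (0.9214) and RC3H1 (0.9162). The points share their cell line, and the level of the 3 members differed between the lines. Within the 5 MDA-MB-231 libraries r was 0.982 for AHR with SLC39A10, 0.981 for ALDH3A1 with FN1 and -0.481 for CYP1A1 with RBM3, and within the 6 T47D libraries it was 0.943, 0.429 and 0.936. ALDH3A1 had 3 counts or fewer in each T47D library, so that its log2 cpm there rests largely on the prior count of 2. The r of ALDH3A1 in MDA-MB-231 and of CYP1A1 in T47D includes the gap between the mimics that chose them. These values are a description only.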

How the data were processed

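RNA of MDA-MB-231 and T47D cells was measured in 12 samples, of which 11 had counts. The deposited table gives read counts and RPKM values per gene on hg19. Per the labels, the authors used FastQC, Trim Galore 0.4.4, TopHat2 2.1.0, SAMtools 1.4, bedtools 2.17, HTSeq 0.6.1p1 and edgeR 3.16.5, and libraries were stranded and poly(A) selected. The strand option of counting is not given in the sources used here. RPKM values were used only for the totals they imply. Of 24656 entries, 1288 repeat a symbol, and the entry with the most reads was kept.

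Counts were fitted with edgeR 4.0.16 in R 4.3.3 (TMM, filterByExpr, quasi-likelihood test, Benjamini-Hochberg adjustment over all genes tested), with the mimics compared in a separate fit for each line and the lines compared in a fit of all 4 conditions. A call needs an adjusted p below 0.05 and a log2 fold change beyond 1. Log2 cpm had a prior count of 2. The steps were tested on simulated data. Alternatives used DESeq2 1.42.0 and limma 3.58.1 among others. Motifs were searched with Python and pysam. At these depths 3 counts correspond to 0.171 to 0.203 cpm.

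The 7 members and the lists were chosen with earlier results of these data known, and members carry no p for the mimics. Of each list, at most the 4 largest called changes per comparison are named, with ARNT2 and NQO1 (1 further gene of the rule is not reported here), and the 3 genes most like AHR, CYP1A1 and ALDH3A1 whose mean log2 cpm reaches 2.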

Additional observations from a re-analysis of the deposited data

Results flagged for a closer look

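For 3 related genes that passed the filter on low counts in both lines, the difference between GFOGER and IKVAV was not the same in the 2 lines by the interaction of cell line and mimic. CYP2S1 had an interaction of -1.71 on the log2 scale (-1.83 in MDA-MB-231 and -0.12 in T47D). ALDH3A2 had -1.37 (-1.54 in MDA-MB-231 and -0.16 in T47D). ARNTL2 had 1.15 (1.12 and -0.02). Its T47D value is uncertain, with a SE of 0.304 at condition means of 1.641 cpm with GFOGER and 1.673 cpm with IKVAV.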

How the results depend on the processing

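The cell line differences of the 7 members kept their direction in all alternatives run. Where an IKVAV library of MDA-MB-231 was left out, the lone library was assumed to vary like the other groups. The calls of AHR, AHRR and TIPARP held in each. ALDH3A1 was called wherever it was fitted, but it had to differ between the lines, so that this says nothing about robustness. It could not be fitted with at least 10 counts in every library. With libraries left out in turn, members called between the lines numbered 4 to 5, and CYP1B1 ranged from 0.905 to 1.019, past the limit without T47D IKVAV replicate 2. By the adjusted p alone ARNT (-0.18), CYP1A1 (0.905) and CYP1B1 (0.946) passed, and members called were 7 between the lines. In MDA-MB-231 members called were then 5, beside 6040 of all 14092 genes tested. That count of 5 carries no test, since these values chose the set. Related genes called by the adjusted p alone were 22 in MDA-MB-231 and 39 between the lines, where 12947 of all 15320 genes were called. With the 2-fold limit inside the test, members called in T47D were 0 and related genes in MDA-MB-231 3. In T47D the members called were 0 to 1 with libraries left out, 0 without any GFOGER replicate or IKVAV replicate 2 and 1 without IKVAV replicate 1 or 3. In MDA-MB-231 the related genes called were 3 to 5, with 3 without IKVAV replicate 2. With at least 10 counts in every library, 13 related genes were called between the lines, since fewer genes were tested. Among genes tested in each line on its own, a limit chosen after seeing the data, 16 were called. The cause of the other changes was not tested. TIPARP in T47D was -0.37 without IKVAV replicate 3, against -0.61, CYP1A1 and TIPARP in MDA-MB-231 reached -0.087 and -0.063, and ARNT and CYP1B1 in T47D reached 0.042 and 0.056 with a library left out.

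Over all genes, calls in T47D were 3 in the main analysis, 0 with the 2-fold limit inside the test, 6 by adjusted p alone, 20 with no filter, 8 with DESeq2, 2 with library size alone, 5 in one fit of all conditions and 5 with the replicate number as a block. They were 146 with voom and sample quality weights and 94 without IKVAV replicate 3, both far above the main count. Without that replicate, a setting chosen for the related genes after seeing the data, 6 of them had an interaction, against 4. ARNT2 (1.45) and ABCG2 were among them, at only 5 to 22 and 12 to 21 counts per T47D library. Calls over all genes in MDA-MB-231 were 403 with the 2-fold limit inside the test and 6040 by adjusted p alone, against 1349. Between the lines they were 12947 by adjusted p alone and 4091 with at least 10 counts in every library, against 7092. Deviations of same-numbered libraries from their condition means correlated at -0.184 to 0.021, which shows no clear shared deviation by number. With so few libraries per condition, this cannot tell whether same-numbered libraries were prepared together. The replicate block changed no call of a member. The robust spread (4 calls in T47D), the newer quasi-likelihood form, voom and the other ways to treat repeated symbols were chosen after seeing the data and changed no count of members called. T47D ALDH3A1, at 3 counts or fewer, is limited by depth.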
